A study of Caenorhabditis elegans with 11 samples.

Results

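Transcript clusters that separated all 9 arrays of betalain-treated worms from both arrays of untreated worms were described. Of 29317 clusters, 2101 (7.17%) met this rule: 486 (1.66%) were higher and 1615 (5.51%) were lower with betalains. Members were chosen by their log2 values on these arrays. A member had all 9 treated log2 values on the same side of both control values and a mean difference over 1, which is a 2-fold change. The rule used the contrast of betalains with control, so differences from control below are descriptions with no test. It asks for the mean over 9 arrays, so a cluster can be a member mainly through 1 of the compounds.

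All animals were Caenorhabditis elegans of the wild-type N2 strain, taken whole and labelled as young adults at 3 days after hatching. The control group was 2 arrays of non treated animals. Indicaxanthin, phenylalanine-betaxanthin and indoline carboxylic acid-betacyanin had 3 arrays each, at 25 uM in S medium for 48 h at 20 °C from 16 to 18 h after hatching. The labels call each array an independent trial without saying what a trial shared, so p-values measure only the spread between these samples. The 2 longer names are shortened to Phe-betaxanthin and indoline-betacyanin below. Values are RMA log2 levels, 1 per cluster and array, with medians over all clusters of 2.17 and 2.12 in controls and of 1.94 to 2.01 in treated animals.

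Betalains are the yellow to violet pigments of cacti, beets and their relatives, and act as antioxidants in the test tube. All contain betalamic acid. In betaxanthins it is joined to an amino acid or amine, which is proline in indicaxanthin and phenylalanine in Phe-betaxanthin. In betacyanins it is joined to an indoline ring system. In C. elegans, compounds taken up from the medium can change genes of conjugation and oxidation, of stress chaperones and of epidermal or intestinal defence. The same genes, and those for yolk, gametes and cuticle, also change as a worm passes from the last larval moult to egg laying.

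Adult markers divided the arrays in another way than treatment did, and this touches every result. The mean log2 level of the 6 yolk genes was 1.71 and 1.56 in the controls, 1.71 and 1.75 on indicaxanthin arrays 1 and 2, and 1.67 to 3.17 with indoline-betacyanin. It was 10.09 on indicaxanthin array 3 and 10.01 to 10.07 with Phe-betaxanthin. The adult cuticle collagen col-19 was at 3.58 and 3.82 on the controls and at 9.28 to 9.51 on those 4 arrays, while 6 moulting markers averaged 6.35 and 6.45 on the controls and 3.99 to 4.88 on them. The controls therefore lacked the yolk and col-19 levels of the 4 arrays, although all share the young adult label. In whole animals, fewer cells of a type and less RNA per cell cannot be told apart. Indicaxanthin array 3 correlated at 0.99 to 0.994 with the Phe-betaxanthin arrays and at 0.818 and 0.826 with the other arrays of its own group, so many values that rest on it are given with and without it.

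The members were of unequal kinds in the 2 directions. Of the 456 higher members with a gene name, 449 were protein-coding, which is 2.31% of the 19414 protein-coding clusters. Of the 1238 lower members with a name, 816 were of the RefSeq type ncRNA, which is 12% of 6814 such clusters, against 384 protein-coding members (1.98%). Non-coding clusters of that type were higher in 2 cases (0.0294%). A further 30 higher and 377 lower members had no gene name. Clusters can share probes: the 1615 lower members held 1354 distinct sets of values and the 486 higher members 483.

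**Figure D1:**
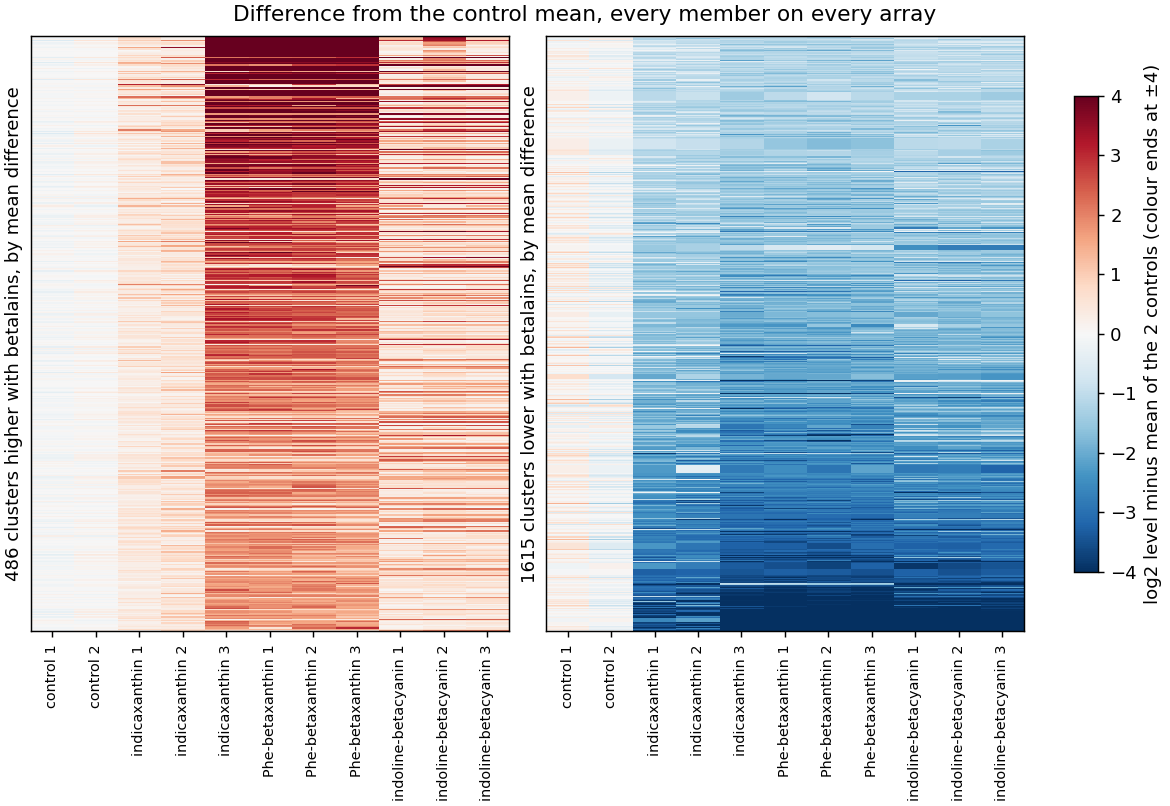
Every member (rows, sorted by mean difference) on each of the 11 arrays (columns), as log2 level minus the mean of the 2 controls, with red higher and blue lower and colours ending at ±4. Among the 486 higher members, indicaxanthin array 3 and the 3 Phe-betaxanthin arrays were the darkest, while the 1615 lower members were blue on all 9 betalain arrays.

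Higher members were close to control on 5 of the 9 treated arrays. Their median log2 difference from the control mean was 0.38 and 0.50 on indicaxanthin arrays 1 and 2, and 0.60, 0.77 and 0.67 with indoline-betacyanin. It was 2.22 on indicaxanthin array 3 and 2.17, 2.24 and 2.01 with Phe-betaxanthin. By compound the median difference was 2.15 for Phe-betaxanthin, 0.66 for indoline-betacyanin and 1.06 for indicaxanthin, or 0.45 for indicaxanthin arrays 1 and 2. The difference of means was over 1 for each of the 3 compounds in 64 higher members (13.2%), and in 18 when indicaxanthin was read from arrays 1 and 2. The gap between the nearest treated and the nearest control array had a median of 0.133 and passed 0.5 in 28 higher members.

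Lower members were lower on all treated arrays by similar amounts. The median log2 difference was -1.56 and -1.54 on indicaxanthin arrays 1 and 2, -2.01 on array 3, -1.92 to -2.02 with Phe-betaxanthin and -1.71 to -1.78 with indoline-betacyanin. Each compound's mean was lower by over 1 in 1267 of the 1615 (78.5%), and each single array in 969. The gap between nearest arrays had a median of 0.888 and passed 0.5 in 1165. Many were dim: the median level was 3.98 on the controls and 1.89 with betalains, and 929 had a betalain mean under 2, near the median of all clusters. A fold change at such levels is compressed by the background of the array.

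**Figure D2:**
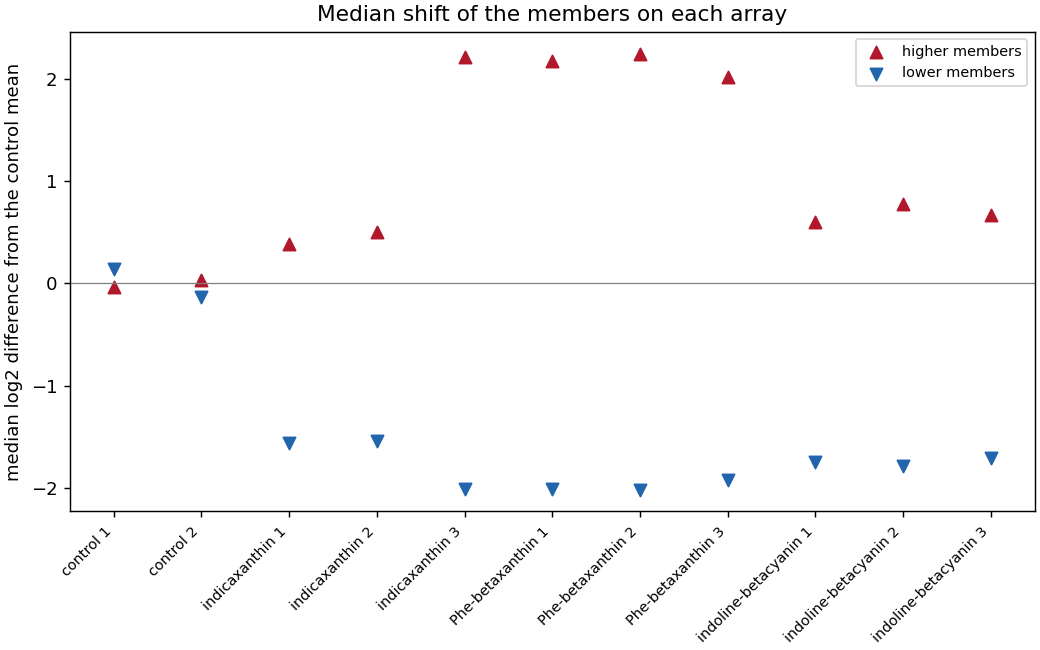
Median log2 difference from the control mean over the 486 higher members (red) and the 1615 lower members (blue) on each of the 11 arrays. Higher members lie near 2 on 4 betalain arrays and between 0.38 and 0.77 on the other 5, while lower members lie between -1.54 and -2.02 on all 9.

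The 10 higher protein-coding members with the largest mean differences included 2 yolk genes and 2 sperm genes, which were high on the same 4 arrays as the adult markers. vit-2, a vitellogenin that carries lipid to oocytes, was at 1.58 and 1.81 on the controls. It was at 2.39, 1.92 and 10.26 with indicaxanthin, 10.23, 10.08 and 10.08 with Phe-betaxanthin, and 2.90, 5.15 and 2.48 with indoline-betacyanin. Treated and control arrays did not overlap, yet 4 treated arrays stood far above the other 5, of which indoline-betacyanin array 2 was in between. vit-6, another vitellogenin, was 4.53 higher in the mean on the log2 scale and F57C2.4, the largest of all and on none of the lists, was 4.72 higher, with the same 4 arrays above 10. nspd-10, of a small peptide family expressed with sperm, was at 1.18 and 1.59 in the controls, 1.99, 2.10 and 8.16 with indicaxanthin, 8.16, 8.19 and 7.67 with Phe-betaxanthin, and 2.07, 3.05 and 2.31 with indoline-betacyanin. ule-4, named for expression in the uterine lumen, was at 1.09 and 1.22 on the controls and at 7.67 to 7.92 on the 4 high-yolk arrays, and at 1.29 to 2.09 on the others. Some vitellogenin and nspd genes have near-identical family members whose probes can be shared, so single members can be uncertain. The clusters of vit-2 and vit-6 had different values.

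ZK105.1 and dct-8, also among the 10 largest, had another pattern. ZK105.1 was at 3.52 and 4.59 in the controls, 5.04, 5.87 and 9.18 with indicaxanthin, 9.19, 9.62 and 9.20 with Phe-betaxanthin, and 7.03, 7.44 and 7.22 with indoline-betacyanin. Each compound was therefore above control by more than the spread of its own arrays, apart from indicaxanthin with its array 3. dct-8, first found among DAF-16 controlled genes that affect germ line tumours, was at 1.00 and 1.33 on the controls and at 2.71, 4.71 and 5.52 with indicaxanthin. It was at 6.31, 7.21 and 6.49 with Phe-betaxanthin and at 1.60, 2.27 and 1.94 with indoline-betacyanin. D1054.10, T12B5.15 and nspd-1 were higher by 4.36, 3.32 and 3.23 in the mean, with the 4 arrays of vit-2 far above the rest.

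Defence peptides of the epidermis were among the members that were higher in all compounds. cnc-2, a caenacin of the antimicrobial peptide group, was at 5.21 and 5.34 on the controls. It was at 7.43, 7.87 and 6.93 with indicaxanthin, 7.32, 7.61 and 7.78 with Phe-betaxanthin, and 7.41, 7.63 and 7.54 with indoline-betacyanin, a mean difference of 2.23. These 9 values spanned 0.94 and all lay more than 1 above both controls. nlp-28, a peptide of the nlp-29 group made in the epidermis on infection or wounding, was at 7.47 and 7.6 on the controls and at 8.38 to 9.47 with betalains. cnc-7, another caenacin, was at 4.29 and 4.46 in the controls, 5.72, 6.22 and 8.56 with indicaxanthin, 8.53, 9.07 and 8.97 with Phe-betaxanthin, and 5.62, 5.97 and 5.65 with indoline-betacyanin. Of 53 antimicrobial peptide genes measured, 4 were higher members (7.55%, against 1.69% of all named and 2.31% of protein-coding clusters) and 0 lower. These 4 do not stand for the list: its median log2 difference was 0.035, against 0.055 over all named clusters, and 28 of 53 differences were positive. The 4 members were cnc-2, cnc-7, fipr-13 and fipr-22, while nlp-28 was counted with the neuropeptides. The fipr genes belong to the family of fungus-induced proteins, and fipr-13 was above 4 only on the 4 high-yolk arrays.

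The levels of 10 protein-coding higher members were even across compounds, with each compound over 1 and a range under 1.5, a group chosen after its values were seen. Besides cnc-2 and nlp-28 they were R09E10.13, Y32B12C.1, ent-6, ugt-28, F31E3.6, B0222.5 and VB0393L.2, which has 2 clusters with identical values. Indicaxanthin was read here from all 3 arrays. With arrays 1 and 2 alone, its mean was less than 1 above control in ent-6, ugt-28, Y32B12C.1, B0222.5 and VB0393L.2. In F31E3.6, indicaxanthin array 1 at 5.214 barely passed control 2 at 5.210. ent-6, of the equilibrative nucleoside transporters, was at 3.98 and 4.31 in the controls, 5.18, 4.84 and 5.78 with indicaxanthin, 5.81, 5.83 and 5.67 with Phe-betaxanthin, and 5.97, 6.08 and 6.19 with indoline-betacyanin. ugt-28, a glucosyl- or glucuronosyltransferase of detoxification, was at 2.18 and 2.44 on the controls and at 3.03 to 4.22 on the betalain arrays. R09E10.13 was at 2.57 and 3.46 on the controls and at 4.93 to 5.99 with betalains. These groups did not overlap, yet in R09E10.13 the controls lay nearly as far apart as the 9 treated arrays.

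Some higher members of the detoxification, stress and signalling lists were highest with indoline-betacyanin, and others were not. cyp-36A1, a cytochrome P450, was at 2.19 and 2.32 in the controls, 2.47, 2.67 and 2.43 with indicaxanthin, 2.58, 2.57 and 2.73 with Phe-betaxanthin, and 6.22, 6.10 and 6.18 with indoline-betacyanin. Its betaxanthin arrays lay little above the controls, and its mean difference rests on indoline-betacyanin. ins-11, an insulin-like peptide, was at 4.45 and 4.59 in the controls, 5.72, 6.30 and 5.80 with indicaxanthin, 4.69, 5.29 and 5.25 with Phe-betaxanthin, and 9.57, 9.40 and 9.38 with indoline-betacyanin. hsp-16.48, a small heat shock protein whose close copies can share probes, was at 2.48 and 2.48 in the controls, 2.70 to 3.41 with indicaxanthin, 2.92 to 3.27 with Phe-betaxanthin, and 4.49 to 4.83 with indoline-betacyanin. pcs-1, the phytochelatin synthase that protects against cadmium, was at 4.46 and 4.76 in the controls, 5.19 to 5.65 with indicaxanthin, 5.74 to 6.12 with Phe-betaxanthin and 6.70 to 7.04 with indoline-betacyanin. nhr-247 and nhr-112, nuclear hormone receptors, were at 5.05 to 5.19 and 3.50 to 3.64 with indoline-betacyanin and at most 3.62 and 2.27 on the other betalain arrays. ins-23, another insulin-like peptide, went the other way, at 1.47 and 1.47 in the controls, 4.37 to 4.84 on the 4 high-yolk arrays and 1.77 to 1.99 on the other 5 treated arrays. ttm-1 was nearly even between Phe-betaxanthin and indoline-betacyanin, at 1.12 and 1.21 above control on the log2 scale.

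**Figure D3:**
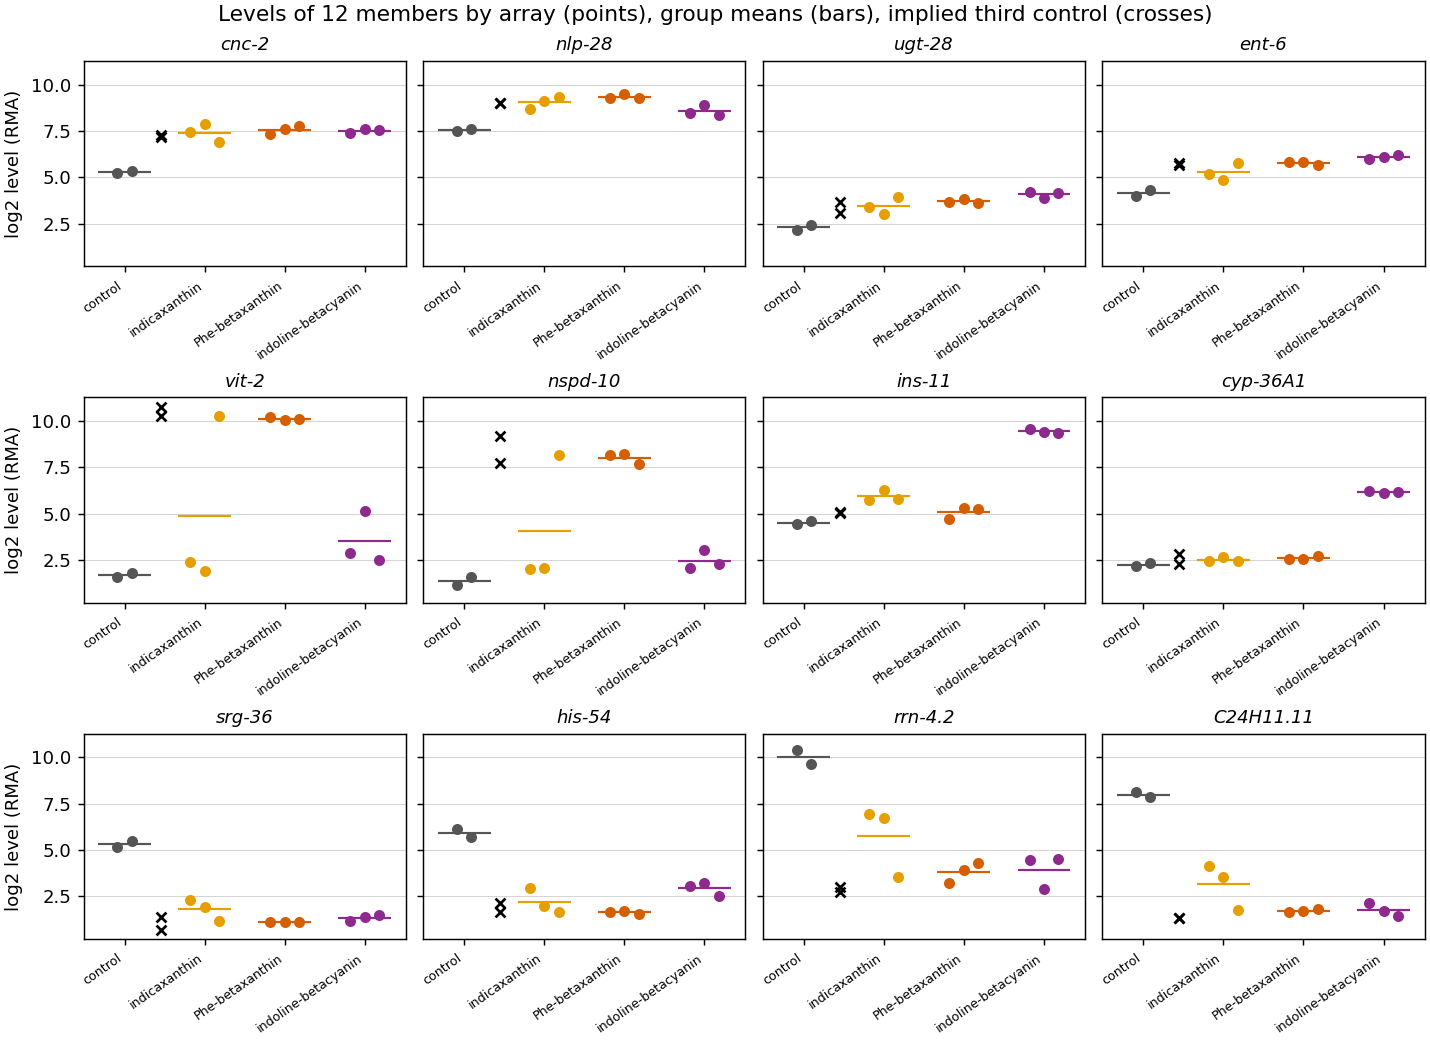
RMA log2 levels of 12 members on each array (points) with group means (bars) for the control, indicaxanthin, Phe-betaxanthin and indoline-betacyanin groups, and the 2 levels implied for the third control (crosses). cnc-2 was even over the betalains, vit-2 and nspd-10 were high on 4 arrays, ins-11 and cyp-36A1 were high with indoline-betacyanin, and the 4 members in the bottom row were lower with all betalains.

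Lists of stress and detoxification held up to 2 higher members each, against 2.31% higher and 1.98% lower among all protein-coding clusters. Of 19 heat shock genes 2 were higher (10.5%), hsp-16.48 and hsp-43, and of 17 metal genes 2 (11.8%), pcs-1 and the zinc transporter ttm-1. The median log2 difference of the heat shock list was 0.62, with a positive difference in 16 of 19 genes. That of the metal list was -0.22, with a positive difference in only 4 of 17. For indicaxanthin the heat shock median was 0.24, and 0.11 on its arrays 1 and 2. With Phe-betaxanthin it was 0.65 and with indoline-betacyanin 0.69. The metal median was 0.04 for indicaxanthin, 0.43 on its arrays 1 and 2, -0.66 with Phe-betaxanthin and -0.02 with indoline-betacyanin. Of 73 cytochrome P450 genes 1 was higher and 1, cyp-33C2, lower (1.37% each). Of 116 conjugating enzymes 1 was higher (0.862%) and 3 lower (2.59%). No gene of the lists for endoplasmic reticulum stress (24 measured), mitochondrial stress (9), dod genes (10), respiratory chain (43) or proteasome (33) was a member. Of 35 antioxidant genes the catalase ctl-3 was lower, at 3.74 and 3.18 on the controls and 1.72 to 2.67 with betalains, and no other was a member. Among 49 insulin pathway genes, ins-11 and ins-23 were higher and ins-38 and ins-3 lower (4.08% each way). Autophagy had 1 member of 29, lgg-3, the worm ATG12.

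Germ line and gamete lists held members while their non-members moved on the same 4 arrays. Among all named clusters 1.69% were higher members, and among protein-coding clusters 2.31%. Of 6 yolk genes 2 were higher members (33.3%), and the median log2 difference of the list was 4.02, against 0.0549 over all named clusters. Of 110 sperm genes 7 were higher (6.36%, list median 0.63). Of 29 germ line genes 3 were higher (10.3%, list median 1.55), syp-2 and htp-3 of meiotic chromosome pairing and pgl-2 of the P granules. None of 25 oocyte and eggshell genes was a member although their median difference was 2.42. For indicaxanthin, the yolk, oocyte, germ line and sperm list medians were 3.05, 1.57, 1.26 and 0.65. On indicaxanthin arrays 1 and 2 they were 0.24, -0.32, 0.03 and 0.10. The rule, which asks for all 9 arrays, therefore caught few of the genes that separate the high-yolk arrays. Mean germ line marker levels were 2.45 and 2.14 on the controls and 6.73 to 7.01 on those 4 arrays.

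Among the lower members, 5S ribosomal RNA stood out by size. All 13 clusters named for the rrn-4 genes, the tandem 5S genes of chromosome V, were lower, which is 81.2% of the 16 ribosomal RNA clusters, while the 3 clusters of the rrn-1 and rrn-2 genes on chromosome I were not members. The 13 clusters held 5 distinct sets of values. rrn-4.2 was at 10.41 and 9.65 in the controls, 6.95, 6.74 and 3.55 with indicaxanthin, 3.23, 3.90 and 4.29 with Phe-betaxanthin, and 4.44, 2.91 and 4.50 with indoline-betacyanin. Indicaxanthin arrays 1 and 2 lay between the controls and the other 7 treated arrays. Over the 13 clusters the difference ran from -5.53 to -3.32, with a median of -4.78. rrn-1.1, of the small subunit RNA, differed by -0.14 at a control level of 11.73.

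The 816 lower clusters of type ncRNA had a median difference of -1.88, from 3.89 on the controls to 1.77 with betalains. C24H11.11 on chromosome III was at 8.13 and 7.86 in the controls, 4.13, 3.56 and 1.76 with indicaxanthin, 1.67, 1.71 and 1.81 with Phe-betaxanthin, and 2.14, 1.74 and 1.45 with indoline-betacyanin. T04D3.9 was at 7.54 and 7.41 in the controls, 3.82, 3.65 and 1.34 with indicaxanthin, and 1.22 to 1.45 with the other compounds. ZK622.8 was at 8.10 and 7.67 on the controls and at 1.05 to 5.19 with betalains, and a cluster with no name has the same values. In each of these 3, as in the 5S RNA, indicaxanthin arrays 1 and 2 kept a higher level than the other 7 treated arrays. All 8 microRNA clusters stayed outside the rule. By chromosome, 8.97% of ncRNA clusters on IV and 13.1% on III and on X were lower members.

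Lower protein-coding members included genes known only by sequence names, chemoreceptors, collagens and moulting genes. The 10 with the largest differences were Y17D7C.1, T13A10.1, F07C3.16, F11A5.13, srg-36, C55A1.11, K09C8.9, F39E9.14, his-54 and F09E10.1, with differences from -5.05 to -3.63. T13A10.1 was at 8.30 and 8.19 in the controls, 4.78, 2.70 and 4.50 with indicaxanthin, 4.02, 4.02 and 3.45 with Phe-betaxanthin, and 1.66, 2.50 and 1.45 with indoline-betacyanin. K09C8.9 was at 5.08 and 5.02 on the controls and at 1.15 to 1.55 on all 9 betalain arrays. The histone gene his-54 was at 6.12 and 5.72 in the controls, 2.97, 2.01 and 1.64 with indicaxanthin, 1.68, 1.72 and 1.58 with Phe-betaxanthin, and 3.05, 3.21 and 2.53 with indoline-betacyanin. Only 2 of 67 histone genes were lower members, his-54 and his-3, and histone copies can share probes.

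Receptors for odours and pheromones gave 46 lower members of 1400 (3.29%), against 4.58% of all named and 1.98% of protein-coding clusters. srg-36, a receptor for an ascaroside pheromone, was at 5.15 and 5.49 in the controls, 2.30, 1.96 and 1.19 with indicaxanthin, and 1.12 to 1.51 with the other compounds. srw-63, srsx-39 and srg-38 were also near 1 to 2 with every betalain, against 3.27 to 5.03 on the controls. odr-10, the diacetyl receptor, was at 3.65 and 2.89 on the controls and at 1.37 to 2.05 with betalains. Among C-type lectins 11 of 250 were lower (4.4%), led by clec-40. F-box and math genes gave 13 lower (3.04%) and 7 higher members (1.64%) of 428.

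Cuticle genes were lower at shares above the 4.58% of all named and the 1.98% of protein-coding clusters, and here too the arrays differed within indicaxanthin. Of 195 collagen and related cuticle genes 14 were lower (7.18%), with a list median of -0.50. A further 4 were higher (2.05%, against 2.31% of protein-coding clusters). Of 131 moulting and apical matrix genes 8 were lower (6.11%) and none was higher. col-65, a cuticle collagen, was at 8.68 and 8.43 in the controls, 8.20, 7.71 and 5.14 with indicaxanthin, 4.28, 4.10 and 4.89 with Phe-betaxanthin, and 4.0, 4.21 and 4.52 with indoline-betacyanin. grl-16, of the ground-like hedgehog-related proteins, was at 9.03 and 8.80 in the controls, 8.67, 8.41 and 6.66 with indicaxanthin, 6.19, 5.78 and 6.95 with Phe-betaxanthin, and 4.62, 4.93 and 4.99 with indoline-betacyanin. In both, indicaxanthin arrays 1 and 2 came within 1 of the controls. The moulting markers fixed as a check had 1 member, wrt-4, and their mean level was 5.72 to 6.26 on indicaxanthin arrays 1 and 2 and 5.56 to 5.67 with indoline-betacyanin. The part of the moult in these differences was not tested.

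Metabolic and detoxification genes among the lower members showed both patterns. ugt-38, of the UDP-glycosyltransferases, was at 4.88 and 4.42 on the controls and at 1.00 to 1.28 on all 9 betalain arrays. gst-44, a glutathione S-transferase, was at 7.51 and 7.39 in the controls, 7.28, 7.35 and 3.53 with indicaxanthin, 3.86, 3.81 and 3.53 with Phe-betaxanthin, and 6.64, 6.85 and 6.72 with indoline-betacyanin. lipl-3, a lysosomal lipase of fasting, was at 6.89 and 7.20 in the controls, 3.35 to 4.08 on the 4 high-yolk arrays and 5.94 to 6.76 on the other 5 treated arrays. fat-5, a palmitoyl-CoA desaturase, and acs-1, an acyl-CoA synthetase, were lower by 1.12 and 1.21 in the mean.

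Protein-coding members were unevenly placed on the chromosomes. On X, 27 of 2660 clusters were higher (1.02%), against 422 of 16754 on the autosomes (2.52%), with 4.02% on III and 3.52% on I. Lower members made up 2.89% on X and 2.73% on V, against 1.83% on the autosomes. Germ line genes are known to be scarce on X, and the higher members hold the germ line and sperm genes named above. Their part in the split was not tested.

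A control array that the rule did not use gave a check on the members. The authors' deposited tables for indoline-betacyanin and Phe-betaxanthin rest on 3 arrays a group, since their sum of squares is 1.5 times the squared log2 ratio at the median. With the treated mean and the 2 control arrays known, each table implies the level of the third control, and the levels implied by the 2 tables differed by 0.217 at the median. The residual sum of squares computed with it was 1.05 (indoline-betacyanin) and 1.03 (Phe-betaxanthin) times that in the authors' deposited tables at the median. The quartiles were 0.73 to 1.49 and 0.67 to 1.48, so the level implied for a single gene is approximate. From the authors' deposited tables, the third control had a mean yolk level of 10.09 or 10.22, and over all clusters it correlated with the Phe-betaxanthin arrays at 0.982 to 0.984. It was thus an untreated sample with the marker levels of the 4 high-yolk arrays. It is a calculated array, not analysed here as data.

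Most members had moved in the third control as well. By each of the authors' deposited tables, taken alone, its level lay past 0.5 of the shift from control to betalains in 446 of 486 higher members (91.8%). It did so in 1599 of 1615 lower members (99%) by the authors' deposited table for indoline-betacyanin and in 1557 (96.4%) by that for Phe-betaxanthin. No such share over all clusters is given here. The rule chose clusters where both controls stood apart from the betalain arrays. The third control correlated at 0.982 to 0.984 with the Phe-betaxanthin arrays, which the rule used. These counts are therefore descriptions with no test. The median share of the shift was 1.71 or 1.65 in the higher and 1.18 or 1.10 in the lower members, so the third control was typically beyond the betalain mean. It was mostly not beyond the betalain arrays themselves. Of the 486 higher members, 328 or 352 had it within the range of the betalain arrays and 143 or 114 beyond that range. Of the 1615 lower members, 800 or 853 had it within the range and 731 or 547 beyond. For cnc-2 the implied levels were 7.28 and 7.17, for nlp-28 9.01 and 8.98, and for ent-6 5.65 and 5.79, all within the range of the betalain arrays. For rrn-4.2 they were 3.01 and 2.74, for C24H11.11 1.37 and 1.32, and for ugt-38 0.54 and 0.65. For these members the level implied for an untreated sample was like that of the treated samples or beyond it.

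**Figure D4:**
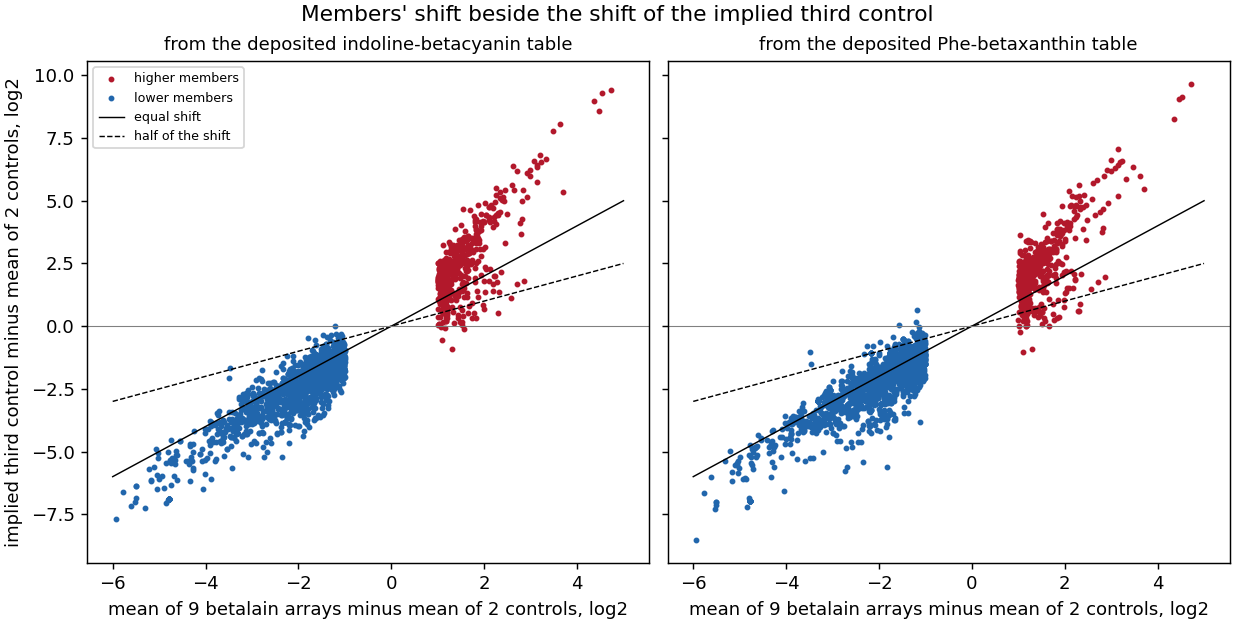
Each member's mean betalain difference (x axis, log2) against the difference implied for the third control (y axis, log2), from the authors' deposited table for indoline-betacyanin (left) and for Phe-betaxanthin (right), with lines for an equal shift and for 0.5 of it. Of 486 higher members (red) 446 lie past the dashed line in each panel, and of 1615 lower members (blue) 1599 and 1557.

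The third control lay on the control side of all 9 betalain arrays, by both of the authors' deposited tables, in 8 higher and 51 lower members. The 8 higher ones were T10C6.15, Y17D7B.3, R02D5.3, the fatty acid amide hydrolase faah-2, the F-box gene fbxc-58, the antisense RNA F53F1.14, Y58A7A.3 and a cluster with no name. They were singled out after their values were seen. faah-2 was at 6.35 and 6.88 in the controls, 6.99, 7.17 and 7.51 with indicaxanthin, 7.12, 7.38 and 7.38 with Phe-betaxanthin, and 8.46, 8.79 and 8.68 with indoline-betacyanin, with 6.79 and 6.82 implied for the third control. The implied levels lay below its lowest betalain array by less than the median gap of 0.217 between the authors' deposited tables, so its place on the control side is uncertain. The same held for Y17D7B.3. It also held for T10C6.15 and R02D5.3 by the authors' deposited table for Phe-betaxanthin, and for F53F1.14 by that for indoline-betacyanin. fbxc-58 was at 5.24 and 5.36 in the controls, 5.90, 6.18 and 5.49 with indicaxanthin, 5.46, 5.79 and 6.04 with Phe-betaxanthin, and 7.62, 7.54 and 7.53 with indoline-betacyanin, with 4.73 and 4.25 implied. Of the 7 with a name, all but T10C6.15 were higher on each indoline-betacyanin array than on any betaxanthin array. T10C6.15 was at 2.96 and 3.39 in the controls, 4.74 to 5.22 with indicaxanthin, 3.93 to 4.17 with Phe-betaxanthin and 4.92 to 5.26 with indoline-betacyanin. Its implied levels of 3.56 and 3.90 lay above both controls.

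The 51 lower members of this kind held 40 distinct sets of values, and 37 had a name: 24 ncRNA, 12 protein-coding and 1 of another type. In several the implied level was still nearer to the betalains than to the controls. K09C8.9 had implied levels of 1.67 and 1.65, against 1.15 to 1.55 with betalains and 5.02 to 5.08 on the controls. Its margin above the betalains was also under the median gap of 0.217 between the authors' deposited tables. For col-96, a cuticle collagen at 5.87 and 5.96 on the controls and 3.06 to 4.0 with betalains, they were 4.2 and 4.06. C17D12.12, an ncRNA at 4.94 and 5.0 on the controls and 2.86 to 3.78 with betalains, was an exception, with implied levels of 4.01 and 4.54.

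With the third control inside their control group, the authors' deposited tables gave fewer differences. In the authors' deposited table for indoline-betacyanin, 213 of the 486 higher members had a ratio over 1, and 88 also had an unadjusted p-value under 0.05 (18.1%, against 11.6% of all clusters). In the authors' deposited table for Phe-betaxanthin, all 486 had a ratio over 1 and 40 such a p-value (8.23%, against 3.57%). Of the 1615 lower members, 1517 had a ratio under 1 in the authors' deposited table for indoline-betacyanin, and 110 also such a p-value (6.81%, against 4.93%). In the authors' deposited table for Phe-betaxanthin 1614 had a ratio under 1 and 49 such a p-value (3.03%, against 2.98%). The authors' deposited table for indicaxanthin rests on 2 arrays a group and lists 98 of the higher (20.2%, against 6.24%) and 889 of the lower members (55%, against 6.48%). The 3 tables share control arrays with one another and with the rule, so these counts are not independent of it.

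The rule bears on differences between compounds as well. A mean over 9 arrays can pass through 1 compound alone: of the 486 higher members, 435 had a Phe-betaxanthin mean over 1 above control, and 171 an indoline-betacyanin mean. Lower members are often near background with every betalain, where little room is left to differ. Counts of members that differ between compounds are therefore descriptions, and nothing is read from their distance to the share of all clusters. All compounds had the same dose and time, and the 3 pairs were fitted for every named cluster with limma, with adjusted p-values over all clusters and pairs. Between indoline-betacyanin and Phe-betaxanthin, 278 of 456 higher members differed (61%), against 28.2% of all 27055 named clusters. With indoline-betacyanin 215 of them were lower and 63 higher, directions that 13.8% and 14.4% of all named clusters took. Between indoline-betacyanin and indicaxanthin 74 differed (against 11.3% of all named clusters), and 73 (16%) were higher with indoline-betacyanin, a direction that 7.76% of all named clusters took. Between indicaxanthin and Phe-betaxanthin 18 differed (3.95%, against 1.87%), 16 of them lower with indicaxanthin (0.798% of all named clusters). Of the 1238 lower members 153 (12.4%), 72 (5.82%) and 22 (1.78%) differed in the same order, the last all higher with indicaxanthin (1.08% of all named clusters). The 40 members called between the betaxanthins became 0 by limma when p-values were adjusted within that pair alone, where 518 had an unadjusted p under 0.05, and 7 to 22 when any 1 array other than indicaxanthin array 3 was left out.

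Indicaxanthin array 3 widened the spread in all pairs. Without it 422 of the 456 higher members differed between indoline-betacyanin and Phe-betaxanthin (92.5%, against 43.9% of all named clusters). For indicaxanthin and Phe-betaxanthin the count was 396 (86.8%, against 40.8%), with 389 lower with indicaxanthin (19.9% of all), and for indoline-betacyanin and indicaxanthin it was 138 (30.3%, against 23.4%). Among the lower members 310 (25%), 410 (33.1%) and 270 (21.8%) differed in these pairs. Lower members were higher with indicaxanthin than with Phe-betaxanthin in 392 cases (31.7%, against 20.9% of all named clusters in that direction). They were lower with indoline-betacyanin than with indicaxanthin in 214 (17.3%, against 11.5%). Counts over both kinds of member, 431 for indoline-betacyanin and Phe-betaxanthin, went to 138 to 163 when any 1 array of those 2 groups was left out. Phe-betaxanthin arrays were all high in yolk and indoline-betacyanin arrays were not, so compound and marker state cannot be told apart in that pair.

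**Figure D5:**
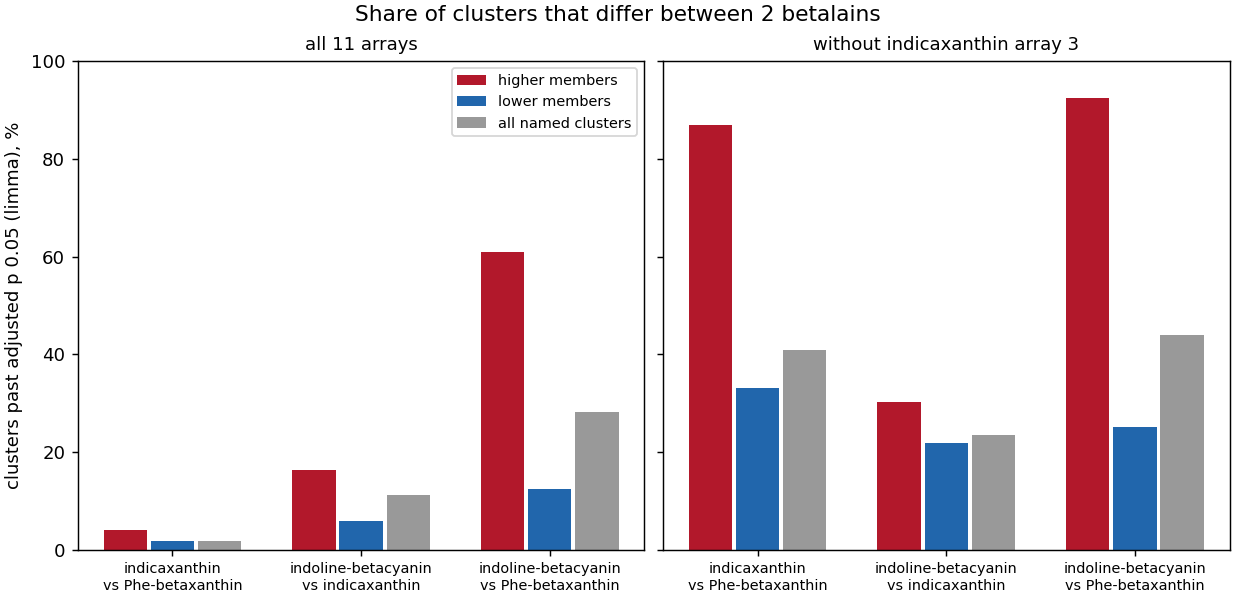
Share of higher members (red, 456 named), lower members (blue, 1238 named) and all 27055 named clusters (grey) with an adjusted p-value under 0.05 (limma) in each pair of betalains, with all 11 arrays (left) and without indicaxanthin array 3 (right). Leaving out that array took the higher members that differ between indicaxanthin and Phe-betaxanthin from 3.95% to 86.8%.

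Several higher members separated the betacyanin, whose betalamic acid is joined to an indoline ring, from both betaxanthins. cyp-36A1 was 3.54 ± 0.10 (SE) higher with indoline-betacyanin than with Phe-betaxanthin and 3.64 ± 0.10 higher than with indicaxanthin, by limma. It is a member only through indoline-betacyanin, so its difference was selected for, and the values of this paragraph are descriptions with no test. ins-11 was 4.37 ± 0.20 and 3.51 ± 0.20 higher. cnp-3, at 4.31 and 4.28 in the controls, 5.61 to 5.91 with indicaxanthin, 5.19 to 5.61 with Phe-betaxanthin and 8.48 to 8.71 with indoline-betacyanin, was 3.17 ± 0.13 and 2.87 ± 0.13 higher. unc-23, a BAG-type chaperone regulator of muscle attachment, F44F4.3 and M04F3.4 behaved alike, with differences from 2.01 to 2.89. All of these held without indicaxanthin array 3, where cyp-36A1 differed by 3.59 from indicaxanthin and ins-11 by 3.44. The levels implied for the third control, 2.28 and 2.81 in cyp-36A1 and 5.03 and 5.12 in ins-11, lay below every indoline-betacyanin array.

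Between the 2 betaxanthins, which differ in the amino acid joined to betalamic acid, few differences passed with and without array 3, and none of them passed with p-values adjusted within the pair alone. T10C6.15 was 1.01 ± 0.17 higher with indicaxanthin (limma adjusted p = 0.00726), and 0.93 higher without array 3. decr-1.1, a dienoyl-CoA reductase of fatty acid oxidation at 3.18 and 3.27 in the controls, 4.36 to 4.78 with indicaxanthin and 5.22 to 6.10 with Phe-betaxanthin, was 1.18 ± 0.21 lower with indicaxanthin on the log2 scale (difference -1.18, limma adjusted p = 0.00909). The hedgehog-related gene grd-6 was 1.40 ± 0.19 higher with indicaxanthin (limma adjusted p = 0.00269), at 4.63 to 5.12 against 3.19 to 3.83. The non-coding F43G6.15 and Y55F3BR.18 were higher with indicaxanthin by 0.65 and 0.91. vit-2 showed the weight of array 3: the difference was -5.27 with a 95% interval of -9.64 to -0.91, and without array 3 it was -7.98, both by limma and given with no test, since vit-2 is a member mainly through the high-yolk arrays.

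The even members were chosen for a narrow range over the betalain arrays, so the closeness of their compounds was selected for and their intervals are given with no test. For cnc-2 the difference between indicaxanthin and Phe-betaxanthin was -0.16 (95% interval -0.66 to 0.34), that between indoline-betacyanin and indicaxanthin 0.12 (-0.39 to 0.62), and that between indoline-betacyanin and Phe-betaxanthin -0.05 (-0.55 to 0.46). nlp-28 was lower with indoline-betacyanin than with Phe-betaxanthin, by a difference of -0.76 (-1.18 to -0.33). ent-6 was 0.81 higher with indoline-betacyanin than with indicaxanthin (0.33 to 1.30). Without indicaxanthin array 3 that difference was 1.07, and ugt-28 was 0.86 higher with indoline-betacyanin than with indicaxanthin. No such interval is given for the lower members, since 929 of the 1615 had a betalain mean under 2, where values close to background bound no fold. For most higher members the interval allowed differences over 1, and it stayed within -1 and 1 in 73, 44 and 32 of 456.

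The threshold of 1 cut through a continuous range. Just inside it were dpf-2 and C36E8.4 on the higher side, each at 1.00, and F22E12.8 and F02G3.2 on the lower side, each at -1.0. Just outside were F58F12.3 and C07H6.2, and ZK218.8 and tbc-14, also at 1.00 and -1.0 after rounding. At a threshold of 1.5 there were 195 higher and 1062 lower members, and at 2 there were 75 and 664. The count of higher members also rested on single controls, with 970 when the second control was left out. With each array centred on its own median, members were 1124 higher and 1297 lower, and the share of higher ones was 46.4% in place of 23.1%, since the median difference of all clusters moved from 0.05 to 0.23.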

How the data were processed

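Per the submitters' processing notes the authors used RMA, and they deposited log2 values of 29317 transcript clusters for each of 11 arrays. The sources used here do not give the array model, the annotation or its build. The authors' deposited comparison tables hold the treated-to-control ratio, an F score, its sums of squares and a p-value with no adjustment, per the file headers. The indicaxanthin table lists 3728 clusters, all with p under 0.05. Of all clusters 27055 carried a gene name, and 26811 matched RefSeq, whose symbols and types were used. The other 2262 were counted as members but not tested.

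Members were found by the rule on the deposited values. Pairs of betalains were tested with limma 3.58.1 in R 4.3.3 (lmFit and eBayes, 4 groups, no block, no filter, Benjamini-Hochberg at 0.05 over 27055 clusters and 3 pairs), which was tested on simulated data. The third control was computed as 3 times the treated mean less the log2 ratio, minus both controls. The precision is limited by the number of arrays. The members, 33 gene lists and tests were chosen with earlier results of these data known. Named were the 10 protein-coding members with the largest differences per direction, 5 non-coding ones, up to 4 per list, 5 per pair by adjusted p, 5 with the narrowest range and 2 on each side of the threshold; others are said to be chosen after their values were seen. A name pattern for microRNAs that also caught protein-coding genes was replaced by the RefSeq type. Alternatives were other scalings, thresholds, filters, array weights, trended and robust eBayes, the trial as a block and leaving out each array. The planned search of promoter motifs was not run and no sequences are shown, since no sequence table was used here.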

Additional observations from a re-analysis of the deposited data

How the results depend on the processing

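Members higher with betalains numbered 486, and 195 at a threshold of 1.5, 75 at 2, 28 with a separation of at least 0.5, 1124 with centred arrays and 419 to 970 when 1 array was left out (970 without control 2). The 1615 lower members became 1062 and 664 at the higher thresholds and 1593 to 2023 with 1 array left out. A further quantile normalization gave 670 and 1421, of which 422 and 1388 were members before. The counts fall at higher thresholds by construction.

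Members that differed between betalains, by limma, were 40 for indicaxanthin and Phe-betaxanthin, 146 for indoline-betacyanin and indicaxanthin, 431 for indoline-betacyanin and Phe-betaxanthin, and 423 over all 3. The first was 63 with a level filter, 22 with only the 9 betalain arrays and 818 with array weights. It was 0 when p-values were adjusted within the pair by limma, with 518 under 0.05 unadjusted. Array weights gave 386 and 760 for the other pairs and 949 over all 3, where only the 9 betalain arrays gave 236. With 1 array left out the ranges were 7 to 806, 94 to 408, 138 to 732 and 129 to 906, each highest without indicaxanthin array 3; leaving out any array of indoline-betacyanin lowered all 4 counts by over 1.5 times, any of Phe-betaxanthin all but the second, either control the first and last (22 and 236), and indicaxanthin array 1 or 2 the first (15). Without either control, the remaining control has no residual, so the fit equals that of the 9 betalain arrays alone (22, 123, 293 and 236). For the betalain arrays the cause was not tested beyond the smaller number of arrays. With the trial number as a replicate block the counts were 41, 128, 362 and 305. Deviations of arrays with the same number correlated at -0.27 to 0.0997 (15 correlations). The 2 controls deviate as mirror images of each other, and array 3 stands apart within indicaxanthin. These correlations therefore cannot show whether arrays with the same number shared a trial. Counts of members shared with the third control stayed within 1.5 times between the tables. Over 157 named genes, no alternative turned the direction of a called value, and, counting each gene, pair and alternative, 379 values no longer passed the threshold while 268 newly did. No array signal has a depth: levels near 2 lie close to background and bound no fold.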
